A study of Mus musculus with 10 samples.

Results

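The cholesterol and fatty acid synthesis genes are 40 genes chosen by name from the 55487 genes of the count tables, and each was counted in all 10 libraries. They comprise 17 sterol enzymes, which carry acetyl-CoA through mevalonate and squalene to the sterol ring and modify that ring, 4 regulators of the sterol response element-binding proteins (SREBPs), and 19 fatty acid and triglyceride genes. The last of these were divided into 7 genes of fatty acid supply, 7 elongases and desaturases, and 5 triglyceride genes. The libraries are from mammary epithelial cells (MECs) and mammary gland macrophages of 10-wk-old female BALB/c mice in diestrus. There were 2 wild-type (WT) MEC libraries, numbered 1 and 3, 2 CebpbΔM MEC libraries with the same numbers, 2 WT macrophage libraries, numbered 4 and 5, and 4 CebpbΔM macrophage libraries, numbered 4 to 7. Every mouse carried floxed Cebpb alleles (Cebpb fl/fl). CebpbΔM mice, which the labels call C/EBPb knockdown, also carried Csf1r-iCre, a recombinase driven in CSF1R-expressing myeloid cells, and WT mice were littermates without the Cre. MECs were obtained by negative selection against other lineages and macrophages by positive selection for F4/80. In the MEC libraries the allele is therefore floxed but the deletion is aimed at another cell type.

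Cells make cholesterol and fatty acids from cytosolic acetyl-CoA, and both branches draw on NADPH. The membrane-bound precursors SREBP1 and SREBP2, encoded by Srebf1 and Srebf2, are escorted by SCAP to the Golgi and released by proteolysis, and INSIG1 holds SCAP in the endoplasmic reticulum when sterols are plentiful. SREBP2 is best known for activating sterol genes and SREBP1c for activating fatty acid genes. The mammary epithelium is known for making milk lipid in lactation, whereas macrophages take up and export lipid as part of clearing cells and debris.

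The total count was between 25310926 and 27008166 in MEC libraries and between 16935000 and 20174722 in macrophage libraries, and the 40 genes took between 0.237% and 0.318% of it. Levels are CPM, read counts relative to library size, scaled by the trimmed mean of M-values (TMM) over all 10 libraries. Cebpb itself was low throughout. It had 25 and 28 counts in WT MECs, 69 and 42 in CebpbΔM MECs, 13 and 15 in WT macrophages, and 16, 13, 5 and 4 in CebpbΔM macrophages 4 to 7, so the macrophage genotypes overlapped. Scaled for depth this was 0.65 and 0.71 CPM in WT macrophages and 0.82, 0.63, 0.27 and 0.24 CPM in CebpbΔM, and the library labelled CebpbΔM macrophage 4 lay above both WT libraries, a difference that is not detectable at these counts. The counts are of the whole gene and were too few for Cebpb to be tested in macrophages. The 10 macrophage markers summed to between 7965 and 14769 CPM in macrophage libraries and between 32.7 and 43.9 CPM in MEC libraries. Markers of other cells were present in both kinds of library. The 8 luminal epithelial markers summed to between 9778 and 9824 CPM in WT macrophages, between 5124 and 6693 CPM in CebpbΔM macrophages and between 28079 and 35803 CPM in MECs. The 6 fibroblast markers summed to between 6550 and 6972 CPM in WT macrophages, between 3244 and 7599 CPM in CebpbΔM macrophages and between 5269 and 6432 CPM in MECs. The 5 endothelial markers summed to between 650 and 1468 CPM in macrophage libraries and between 63.4 and 89.1 CPM in MECs.

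The promoters of several sterol genes carry a CCAAT box, the element bound by NF-Y. To show how these genes compare, the 250 bases upstream of the start site were taken from RefSeq (build GRCm38.p6), in which 31 of the 40 genes had an entry. The genes without one were Fdps, Fdft1, Sqle, Scd1, Scd2, Fads1, Dgat1, Dgat2 and Lpl. Where a gene had more than 1 entry, the one nearest the 5′ end of the counted gene was used. The sterol genes Hmgcs1, Cyp51 and Msmo1 are shown with Insig1, which followed a different course between the cell types, and with Thrsp, Elovl5 and Me1, fatty acid genes that differed between the cell types. All are written 5′ to 3′ on the gene's strand, and capitals mark CCAAT or its reverse complement ATTGG and, in Hmgcs1, a match to TCACNCCAC, a form of the sterol regulatory element. The windows are chr13:119690101-119690350 (plus strand), chr5:4104698-4104947 (minus strand), chr8:64733579-64733828 (minus strand), chr5:28071162-28071411 (plus strand), chr7:97417551-97417800 (minus strand), chr9:77917115-77917364 (plus strand) and chr9:86695915-86696164 (minus strand), in this order.
Hmgcs1: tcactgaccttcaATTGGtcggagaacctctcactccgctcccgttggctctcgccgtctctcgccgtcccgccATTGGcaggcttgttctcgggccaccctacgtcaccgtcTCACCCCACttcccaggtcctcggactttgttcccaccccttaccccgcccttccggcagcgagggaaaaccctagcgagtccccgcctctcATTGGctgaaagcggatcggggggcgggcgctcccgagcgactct
Cyp51: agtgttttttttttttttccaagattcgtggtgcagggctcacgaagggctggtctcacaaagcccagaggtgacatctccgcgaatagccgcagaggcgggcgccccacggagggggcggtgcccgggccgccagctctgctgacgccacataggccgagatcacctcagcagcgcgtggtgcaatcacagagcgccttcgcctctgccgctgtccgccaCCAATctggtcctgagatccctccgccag
Msmo1: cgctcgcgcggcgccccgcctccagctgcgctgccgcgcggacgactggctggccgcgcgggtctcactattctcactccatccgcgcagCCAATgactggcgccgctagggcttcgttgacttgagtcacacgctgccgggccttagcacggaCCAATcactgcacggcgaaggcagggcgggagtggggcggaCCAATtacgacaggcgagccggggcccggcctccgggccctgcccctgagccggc
Insig1: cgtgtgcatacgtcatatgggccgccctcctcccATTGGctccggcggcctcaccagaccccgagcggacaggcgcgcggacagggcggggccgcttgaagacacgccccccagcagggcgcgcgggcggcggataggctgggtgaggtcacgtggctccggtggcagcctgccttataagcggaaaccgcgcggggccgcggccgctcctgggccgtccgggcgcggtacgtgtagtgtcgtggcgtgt
Thrsp: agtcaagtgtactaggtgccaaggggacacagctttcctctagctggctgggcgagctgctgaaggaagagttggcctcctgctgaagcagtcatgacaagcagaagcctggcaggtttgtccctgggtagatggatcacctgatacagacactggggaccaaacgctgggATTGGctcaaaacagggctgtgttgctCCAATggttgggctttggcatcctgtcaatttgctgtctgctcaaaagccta
Elovl5: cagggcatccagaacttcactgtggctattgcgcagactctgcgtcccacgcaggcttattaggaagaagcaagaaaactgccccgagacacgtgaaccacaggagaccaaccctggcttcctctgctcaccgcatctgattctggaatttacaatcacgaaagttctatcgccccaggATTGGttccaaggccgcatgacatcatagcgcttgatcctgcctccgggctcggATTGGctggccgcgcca
Me1: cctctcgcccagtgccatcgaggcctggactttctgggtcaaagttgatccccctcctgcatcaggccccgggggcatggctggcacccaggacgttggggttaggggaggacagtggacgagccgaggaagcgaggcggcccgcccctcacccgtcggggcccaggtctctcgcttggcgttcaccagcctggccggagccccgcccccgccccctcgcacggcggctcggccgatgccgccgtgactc

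Hmgcs1, which encodes the synthase that makes HMG-CoA, has 3 CCAAT matches and Msmo1 has 3, whereas Cyp51 and Insig1 have 1 each and Me1 has none. Both fatty acid genes Thrsp and Elovl5 have 2. CCAAT was found on either strand in 13 of the 14 sterol enzyme windows, or 92.9%, in 7 of the 13 fatty acid and triglyceride windows, or 53.8%, and in 33.8% of all 32851 RefSeq windows. GGGCGG, the core of the GC box, was in 13 of the 14 sterol enzyme windows, in 5 of the 13 fatty acid and triglyceride windows and in 32.7% of all windows. TCACNCCAC was in Hmgcs1 alone among the genes with an entry, and in 1.05% of all windows. CACGTG, the E-box, was in 4 of the 31 windows and in 6.02% of all. TTNNGCAA, a form of the element that C/EBP proteins bind, was in the windows of Nsdhl and Dhcr7 and in 9.56% of all. These are matches of letters on either strand, with base composition not taken into account. The start sites used for Acaca, Lpin1 and Acacb lay 65766, 36000 and 18983 bases from the 5′ end of the counted gene. All others lay within 523 bases of it. Of these distant windows, those of Acaca and Lpin1 had no CCAAT and that of Acacb had it.

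To learn how far the lipid synthesis genes differ between the cell types, WT macrophages were compared to WT MECs. Of the 40 genes, 12 passed the threshold, 5 higher and 7 lower in macrophages (edgeR quasi-likelihood test, adjusted P ≤ 0.05 over 18323 genes). Over all genes tested 25.5% passed, 14.8% higher and 10.7% lower. Of the 17 sterol enzymes, Sqle, Cyp51 and Msmo1 were lower and none was higher. Of the 4 SREBP regulators, Srebf1 and Srebf2 were lower and Insig1 was higher. Fatty acid and triglyceride genes went both ways, with Lpl, Thrsp, Acacb and Elovl5 higher and Me1 and Dgat2 lower. MECs and macrophages were isolated by different protocols, carry different library numbers and were counted separately, so the cell type and the handling cannot be told apart. In bulk libraries fewer cells of a type and less RNA per cell cannot be told apart either. The 8 luminal markers, present in macrophage libraries, were all lower there in WT, by log2 fold changes between -2.18 and -1.2 (median -1.7). The 7 basal markers were also all lower, with a median of -2.03. The part of epithelial RNA in the macrophage levels of the 7 lower genes was not tested.

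On GRCm38, the sterol and SREBP genes that differed are Sqle (ENSMUSG00000022351) at chr15:59315077-59331192 on the plus strand, Cyp51 (ENSMUSG00000001467) at chr5:4081145-4104746 on the minus strand, Msmo1 (ENSMUSG00000031604) at chr8:64718139-64733792 on the minus strand, Insig1 (ENSMUSG00000045294) at chr5:28071363-28078662 on the plus strand, Srebf1 (ENSMUSG00000020538) at chr11:60199089-60222581 on the minus strand and Srebf2 (ENSMUSG00000022463) at chr15:82147181-82205379 on the plus strand. The fatty acid and triglyceride genes are Me1 (ENSMUSG00000032418) at chr9:86581371-86695953 on the minus strand, Acacb (ENSMUSG00000042010) at chr5:114146535-114250761 on the plus strand, Thrsp (ENSMUSG00000035686) at chr7:97412938-97417730 on the minus strand, Elovl5 (ENSMUSG00000032349) at chr9:77917364-77984519 on the plus strand, Dgat2 (ENSMUSG00000030747) at chr7:99153658-99182719 on the minus strand and Lpl (ENSMUSG00000015568) at chr8:68880491-68907448 on the plus strand. The counts are sums over the annotated exons of each gene.

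**Figure D1:**
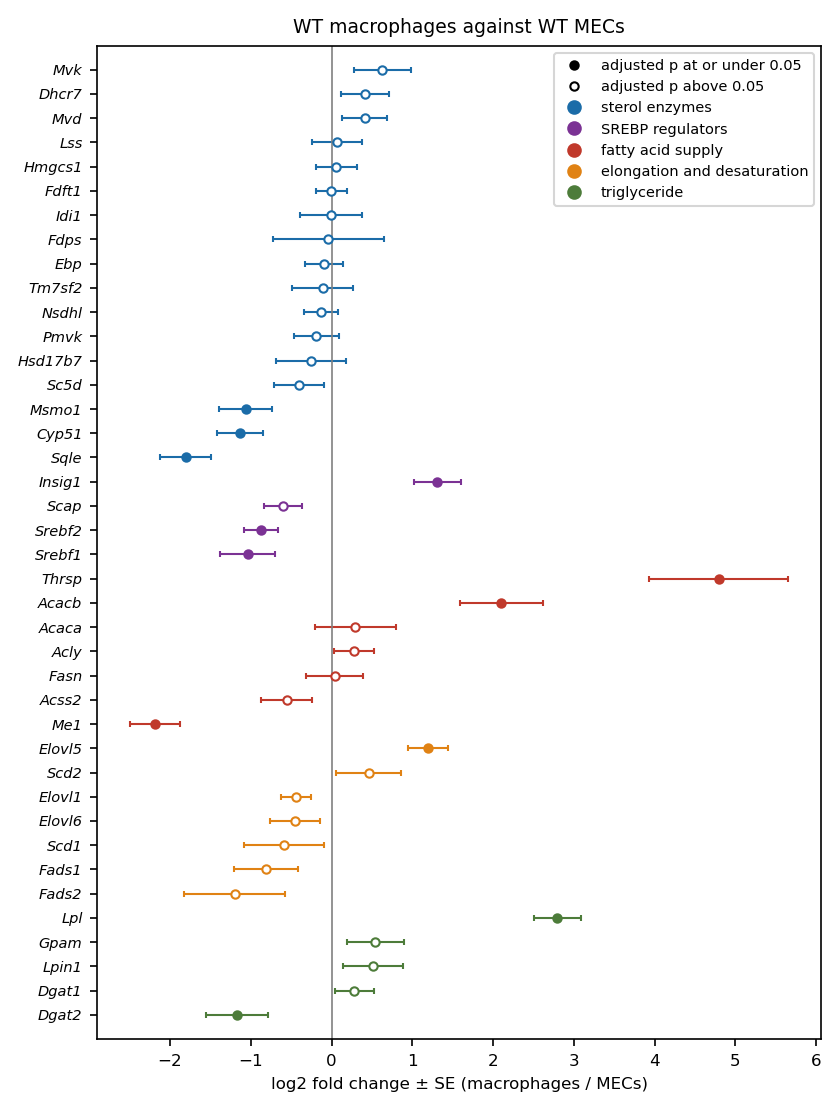
Log2 fold change of each of the 40 genes in WT macrophages relative to WT MECs (x axis, ± SE, 2 libraries per group), with genes grouped by role (color). Filled points are the 12 genes with an adjusted P at or under 0.05, and Thrsp, at 4.79, is the farthest from 0.

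Sqle, squalene epoxidase, had the largest difference of the sterol enzymes. Its level was 126 and 152 CPM in WT MECs and 47.6 and 31.9 CPM in WT macrophages, so that the WT groups were well separated. It was 116 and 121 CPM in CebpbΔM MECs and between 26.5 and 55.1 CPM in CebpbΔM macrophages. The log2 fold change in WT was -1.81 ± 0.31 (SE, adjusted P = 0.0018, edgeR). Cyp51, which removes the first methyl group from lanosterol, was at 59.6 and 63.5 CPM in WT MECs and at 27.6 and 28.4 CPM in WT macrophages, a log2 fold change of -1.14 ± 0.28 (adjusted P = 0.0128, edgeR). Msmo1, which removes the following methyl groups, was at 56.2 and 62.5 CPM in WT MECs and at 33.1 and 23.8 CPM in WT macrophages, a log2 fold change of -1.06 ± 0.33 (adjusted P = 0.0356, edgeR). All 3 genes were also lower in every CebpbΔM macrophage library than in every MEC library.

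The other 14 sterol enzymes did not pass the threshold, and none of them differed by more than 0.63 on the log2 scale. Mvk, mevalonate kinase, was at 10.5 and 7.72 CPM in WT MECs and at 15.8 and 12.4 CPM in WT macrophages. Hmgcs1 was at 61.7 and 74.1 CPM in WT MECs and at 81.1 and 60.6 CPM in WT macrophages, and those ranges overlapped. Fdft1, squalene synthase, was at 97.8 ± 2.32 CPM (SD, n = 2) in WT MECs and at 97.7 ± 13.9 CPM (SD, n = 2) in WT macrophages, directly before the step at which Sqle differed. Of the exon bases of Fdft1, 18.8% overlap Ctsb on the opposite strand, and whether the library kit keeps the strand is not given in the sources used here. Fdps, which makes farnesyl diphosphate, stood at between 0.6 and 2.71 CPM in every library, and 26.7% of its exon bases overlap Gm43738 on the same strand, so its count is uncertain.

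Among the regulators, Srebf2 was at 381 and 293 CPM in WT MECs and at 208 and 161 CPM in WT macrophages, a log2 fold change of -0.87 ± 0.21 (adjusted P = 0.0111, edgeR). Srebf1 was at 224 and 130 CPM in WT MECs and at 85.4 and 86.5 CPM in WT macrophages, a log2 fold change of -1.04 ± 0.34 (adjusted P = 0.0448, edgeR). Scap was at 114 and 93.8 CPM and at 84.8 and 52.5 CPM in the same groups and did not pass the threshold (adjusted P = 0.0884, edgeR). Insig1, the gene for the protein that retains SCAP, moved the other way. It was at 18.0 and 21.9 CPM in WT MECs, at 34.4 and 64.7 CPM in WT macrophages and at between 62.0 and 83.9 CPM in CebpbΔM macrophages. The WT groups did not overlap, and the log2 fold change was 1.31 ± 0.29 (adjusted P = 0.0077, edgeR). Groups without overlap were found for 24 of the 40 genes here and for 65.1% of all genes tested.

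**Figure D2:**
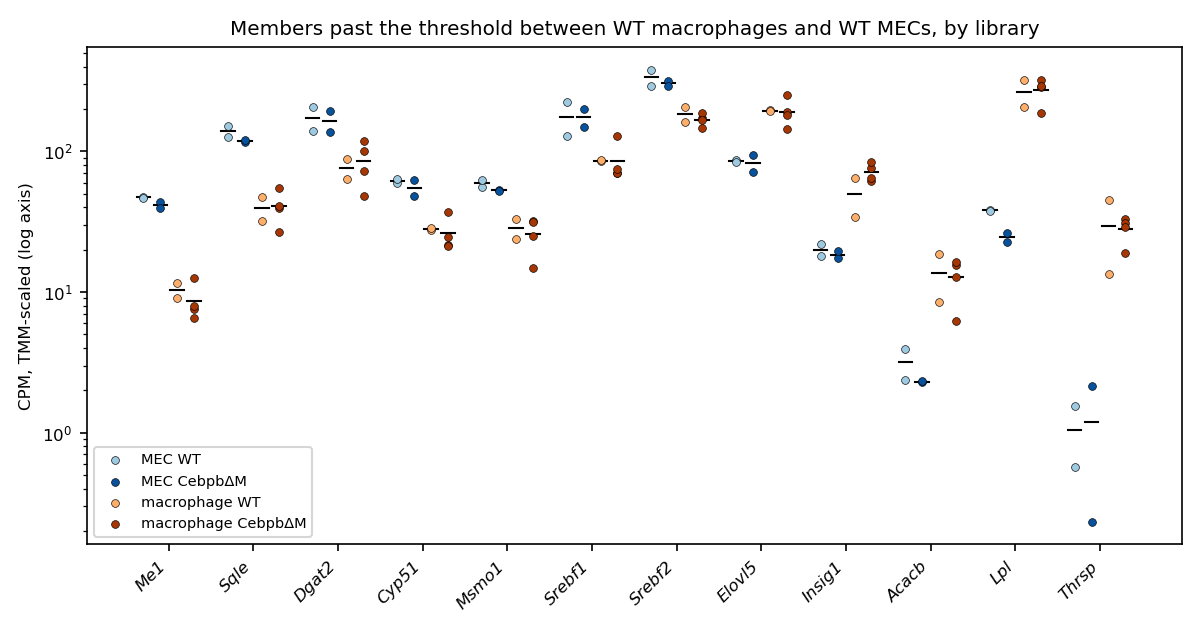
Level of the 12 genes that passed the threshold between WT macrophages and WT MECs, in CPM scaled by TMM on a log axis. Each point is 1 library and each bar a group mean, and the genes run from the most negative fold change on the left (Me1) to the most positive (Thrsp).

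In fatty acid supply, Me1, the malic enzyme that makes cytosolic NADPH, was at 47.7 and 46.6 CPM in WT MECs and at 11.6 and 9.09 CPM in WT macrophages. Its log2 fold change was -2.18 ± 0.31 (adjusted P = 0.000528, edgeR), the most negative of the 40 genes. Thrsp, a lipogenic protein of adipose and mammary tissue, was at 1.54 and 0.57 CPM in WT MECs and at 13.4 and 45.2 CPM in WT macrophages, a log2 fold change of 4.79 ± 0.87 (adjusted P = 0.00232, edgeR). The 2 WT macrophage libraries were far from each other for this gene. Acacb, the acetyl-CoA carboxylase of the mitochondrial surface, was at 3.96 and 2.36 CPM in WT MECs and at 8.48 and 18.7 CPM in WT macrophages, a log2 fold change of 2.1 ± 0.52 (adjusted P = 0.0128, edgeR). Fasn, fatty acid synthase, was at 140 ± 38.6 CPM (SD, n = 2) in WT MECs and at 143 ± 37.9 CPM (SD, n = 2) in WT macrophages. Acly, which makes cytosolic acetyl-CoA, was at 283 ± 24.2 and 343 ± 13.6 CPM (SD, n = 2), and Acaca and Acss2 also missed the threshold.

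Elovl5, an elongase of polyunsaturated fatty acids, was at 86.4 and 83.4 CPM in WT MECs and at 195 and 193 CPM in WT macrophages, a log2 fold change of 1.19 ± 0.25 (adjusted P = 0.00549, edgeR). The desaturase genes Fads1 and Fads2 lay on the other side. Fads2 was at 258 and 166 CPM in WT MECs and at 95.8 and 88.2 CPM in WT macrophages, but did not pass the threshold, with a log2 fold change of -1.20 ± 0.62. Of the triglyceride genes, Lpl, the lipase that frees fatty acids from circulating lipoproteins, was at 38.4 and 37.7 CPM in WT MECs and at 321 and 208 CPM in WT macrophages. Its log2 fold change was 2.79 ± 0.29 (adjusted P = 5.99e-05, edgeR). Dgat2, which adds the last acyl chain to make triglyceride, was at 139 and 206 CPM in WT MECs and at 63.8 and 88.8 CPM in WT macrophages, a log2 fold change of -1.18 ± 0.38 (adjusted P = 0.0445, edgeR). Gpam, Lpin1 and Dgat1 did not pass the threshold.

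The calls differed in how they held when each library was left out in turn. Sqle, Me1, Thrsp, Elovl5 and Lpl passed in all 10 such fits, with an adjusted P of at most 0.0247, 0.0088, 0.0352, 0.049 and 0.00216 (edgeR). Dgat2 lost its call in 8 of the 10 fits, Srebf1 in 7 and Msmo1 in 6, with an adjusted P of up to 0.251, 0.327 and 0.206 (edgeR). Cyp51 lost its call without WT MEC 3, WT macrophage 4 or WT macrophage 5 (adjusted P = 0.0702, 0.0595 and 0.069, edgeR). Insig1 and Srebf2 lost theirs without WT MEC 1 or WT macrophage 5 (adjusted P = 0.0708 and 0.057 for Insig1 and 0.0956 and 0.106 for Srebf2, edgeR), and Acacb without WT MEC 3 or WT macrophage 5 (adjusted P = 0.114 and 0.0928, edgeR). The log2 fold change of Srebf1 was -0.59 without WT MEC 1, and that of Insig1 was 0.83 without WT macrophage 5. Markers of adipocytes were also unequal between the cell types, and adipocytes are known for high Lpl, Thrsp and Acacb. The 10 adipocyte markers summed to between 6.06 and 7.36 CPM in MECs and between 30.6 and 101 CPM in macrophage libraries, most of it Car3 (17 to 62.3 CPM). Of the 7 adipocyte markers tested, 4 passed higher and 1 lower in WT macrophages, with a median log2 fold change of 3.2. In macrophage libraries Cfd was at between 4.63 and 14.4 CPM and Plin4 at between 2.29 and 10.3 CPM, beside at most 0.82 and 1.26 CPM in MECs. Adipoq was at between 1.32 and 3.8 CPM, beside at most 0.19 CPM in MECs. Plin1 was at 1.30 CPM or less and Acvr1c was at 0 in 5 of the 6 macrophage libraries. The part of adipocyte RNA in these 3 genes was not tested.

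Set side by side, the 17 sterol enzymes had a median log2 fold change of -0.1 between the WT cell types, with 12 lower, and the 19 fatty acid and triglyceride genes a median of 0.28, with 8 lower. The median over all genes tested was 0.06, with 47.3% lower. The difference of the medians, sterol minus fatty acid, was -0.38 and shrank to -0.15 without WT MEC 3 and to -0.09 without WT macrophage 4. In the mean log2 CPM of each library, the fatty acid and triglyceride genes were at 5.44 and 5.18 in WT MECs and 5.25 and 5.29 in CebpbΔM MECs. They were at 5.82 and 5.74 in WT macrophages and between 5.56 and 6.01 in CebpbΔM macrophages, with every macrophage library above every MEC library. This mean takes in Thrsp, Lpl and Acacb, with log2 fold changes of 4.79, 2.79 and 2.1. The 7 elongases and desaturases alone overlapped, between 6.27 and 6.67 in MECs and between 6.13 and 6.93 in macrophage libraries. The supply and triglyceride parts, which hold those genes, did not overlap. The sterol enzymes were at 4.61 and 4.64 in WT MECs, 4.50 and 4.70 in CebpbΔM MECs and 4.70 and 4.45 in WT macrophages, which overlap. These log2 means are scaled for library size only and not by TMM, unlike the levels above. The TMM factors were 1.08 and 1.04 in WT macrophages and between 0.913 and 1.02 in MECs. Scaling by them lowers both WT macrophage means relative to every MEC mean. The overlap of the sterol means is therefore a statement about the unscaled values only.

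**Figure D3:**
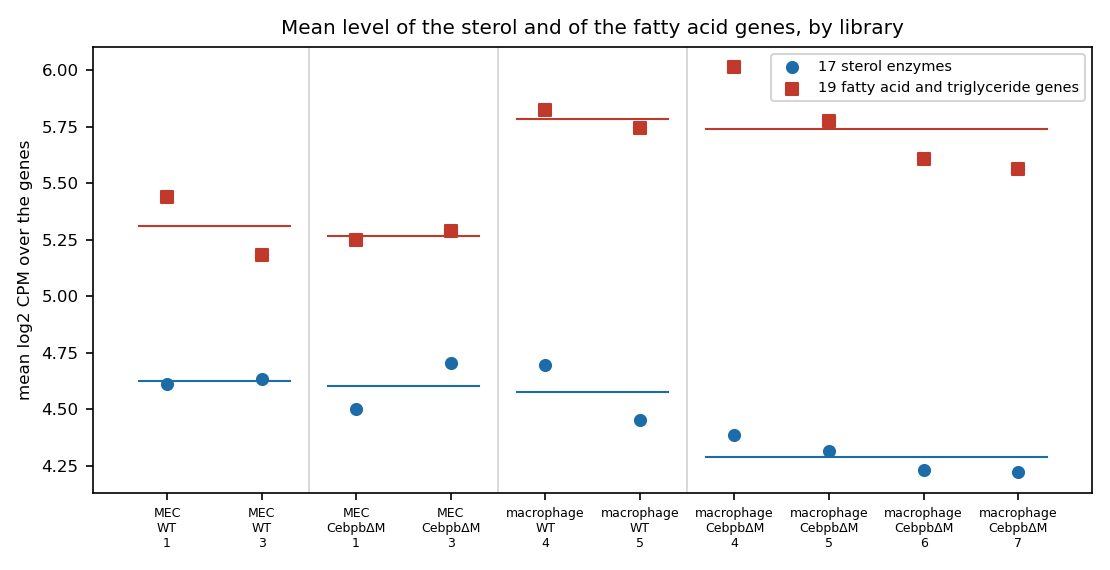
Mean log2 CPM (y axis, scaled for library size without TMM) of the 17 sterol enzymes and of the 19 fatty acid and triglyceride genes in each of the 10 libraries (x axis), with bars for group means. The mean of the sterol enzymes lies between 4.22 and 4.39 in CebpbΔM macrophages, under both WT macrophage libraries. The mean of the fatty acid and triglyceride genes, which takes in Thrsp, Lpl and Acacb, is higher in every macrophage library than in every MEC library.

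Per kilobase of exon (TMM-scaled CPM per kb, RPKM), the order of the genes also differed. In WT MECs, Elovl1, an elongase of very long saturated chains, was highest at 84.8 ± 10.5 RPKM (SD, n = 2), followed by Fads2 at 64.2 ± 19.8, Dgat2 at 55.9 ± 15.4 and Acly at 53.7 ± 4.59, and Elovl1 lay above Dgat2 and Acly in both libraries while the other neighbours in this order overlapped. In WT macrophages, Acly at 65.1 ± 2.58 RPKM, Elovl1 at 62.4 ± 3.91 and Elovl5 at 55.1 ± 0.48 led, and Acly and Elovl1 overlapped while Elovl5 lay below both. The highest sterol enzyme in both was Ebp, the sterol isomerase, at 32.8 ± 1.38 RPKM in WT MECs and 30.7 ± 3.66 in WT macrophages. Sqle came next among sterol enzymes in WT MECs, at 25 ± 3.27 RPKM, but overlapped Fdft1 at 23.8 ± 0.56, and it stood at 7.17 ± 1.99 in WT macrophages.

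Genes around these steps that are not among the 40 were counted from lists. Of 10 genes of sterol efflux and storage, 9 were higher in WT macrophages and none was lower, including Cyp27a1, sterol 27-hydroxylase (log2 fold change 3.67 ± 0.3), and the cholesterol exporter Abca1 (1.85 ± 0.24). Of 8 genes of fatty acid uptake and lipid droplets, 3 were higher and 1 was lower. The higher ones were the fatty acid receptor Cd36 (5.31 ± 0.45), the carrier Fabp4 (3.89 ± 0.37) and the droplet protein Plin2 (0.88 ± 0.26), and the lower one was Btn1a1, of the milk fat globule membrane (-2.42 ± 0.79). All 5 endothelial markers were also higher in WT macrophages (median log2 fold change 3.57). Capillary endothelium is known to express Cd36 and Fabp4. The part of endothelial RNA in these genes and in Lpl was not tested. Of 7 further glycerolipid genes, 3 were lower and none was higher, with Gpat3 at -3.07 ± 0.38. Of 11 genes of acyl-CoA formation and elongation, Acsl3 and Elovl7 were lower. Of 6 lipogenic regulators, Pparg and Nr1h3 were higher, of 12 genes of lipolysis and oxidation Mgll was higher and Acadl lower, and of 4 other sterol genes Stard4 was higher. None of 3 SREBP processing genes and none of 4 genes of citrate export and NADPH passed the threshold.

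To learn whether deletion of Cebpb in myeloid cells changed these genes, CebpbΔM was compared to WT in each cell type. In macrophages none of the 40 genes passed the threshold (edgeR quasi-likelihood test over 17772 genes), where 0% of all genes passed. DESeq2 and the likelihood ratio test called 201 and 138 genes, none of them among the 40. At an unadjusted P under 0.05 there were 3 of the 40, all lower, beside 8.63% of all genes in either direction and 3.67% lower. No gene of the 40 differed by more than 0.78 on the log2 scale, with SEs between 0.15 and 0.69 and a median SE of 0.29. Groups without overlap were found for 4 of the 40 and for 18.5% of all genes.

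Most sterol enzymes lay below WT in CebpbΔM macrophages, without any passing the test. The fold change was below 0 for 14 of the 17, with a median of -0.24 on the log2 scale, beside 49.6% of all genes and a median of 0. When each library was left out in turn, between 11 and 16 of the 17 were below 0. The median was -0.09 without WT macrophage 4 and -0.14 with replicates 4 and 5 of both genotypes only. Dhcr7, which makes the last reduction to cholesterol, was at 36.7 and 32.2 CPM in WT and at 23.7, 27.4, 21.2 and 24.7 CPM in CebpbΔM macrophages 4 to 7. Its groups did not overlap, and the log2 fold change was -0.53 ± 0.19 (unadjusted P = 0.0218, adjusted P = 0.521, edgeR). Lss, which closes the sterol ring, was at 23.2 and 12.8 CPM in WT and at 9.83, 10.7, 12.2 and 13.8 CPM in CebpbΔM. Here WT macrophage 4 alone was high, and the log2 fold change of -0.65 ± 0.29 (adjusted P = 0.592, edgeR) became -0.16 without it and -1.02 without WT macrophage 5. In the mean over the 17 sterol enzymes, without TMM scaling, WT macrophages were at 4.70 and 4.45 and CebpbΔM at 4.39, 4.32, 4.23 and 4.22 log2 CPM. Fold changes of marker genes shared a direction within several lists, without any passing the test. Groups without overlap were found for 3 of 8 luminal, 0 of 6 fibroblast, 5 of 10 macrophage and 0 of 7 basal markers, beside 18.5% of all genes. The luminal epithelial markers were lower in CebpbΔM for 8 of 8 (median log2 fold change -0.7) and the fibroblast markers for 6 of 6, with a median of -0.31. The macrophage markers were higher for 10 of 10, with a median of 0.57 and sums between 9719 and 14769 CPM beside 7965 and 8814 CPM in WT, and the basal epithelial markers for 7 of 7, with a median of 0.88. The part of these cells in the sterol values was not tested.

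The fatty acid and triglyceride genes did not lie to one side, with 9 of 19 below 0 and a median of 0.02. Fasn was at 170 and 117 CPM in WT macrophages and at 126, 90.7, 56.4 and 66.6 CPM in CebpbΔM, a log2 fold change of -0.78 ± 0.32 (unadjusted P = 0.0385, adjusted P = 0.555, edgeR). CebpbΔM macrophages 5, 6 and 7 were below both WT libraries, and the fold change was -0.48 on the log2 scale without WT macrophage 4. Scd2, a stearoyl-CoA desaturase, was at 78.2 and 68.4 CPM in WT and at 58.0, 65.7, 45.3 and 48.4 CPM in CebpbΔM, a log2 fold change of -0.46 ± 0.2 (unadjusted P = 0.0485, adjusted P = 0.575, edgeR). Its relative Scd1 had a log2 fold change of 0.04. Lpin1, a phosphatidate phosphatase, was at 22.1 and 39.3 CPM in WT and at 39.0, 37.5, 68.7 and 49.4 CPM in CebpbΔM, a log2 fold change of 0.64 ± 0.32 (adjusted P = 0.629, edgeR) that was 0.28 without WT macrophage 4 and 1.12 without WT macrophage 5. Insig1 was at 34.4 and 64.7 CPM in WT and between 62.0 and 83.9 CPM in CebpbΔM, and its fold change of 0.51 ± 0.27 on the log2 scale was 0.12 without WT macrophage 4 and 1.04 without WT macrophage 5. The difference of medians between sterol and fatty acid genes was -0.26 and lay between -0.3 and -0.18 when each library was left out, but was -0.11 with replicates 4 and 5 only. Of the 40 fold changes, 19 changed sign in at least 1 fit without a library.

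**Figure D4:**
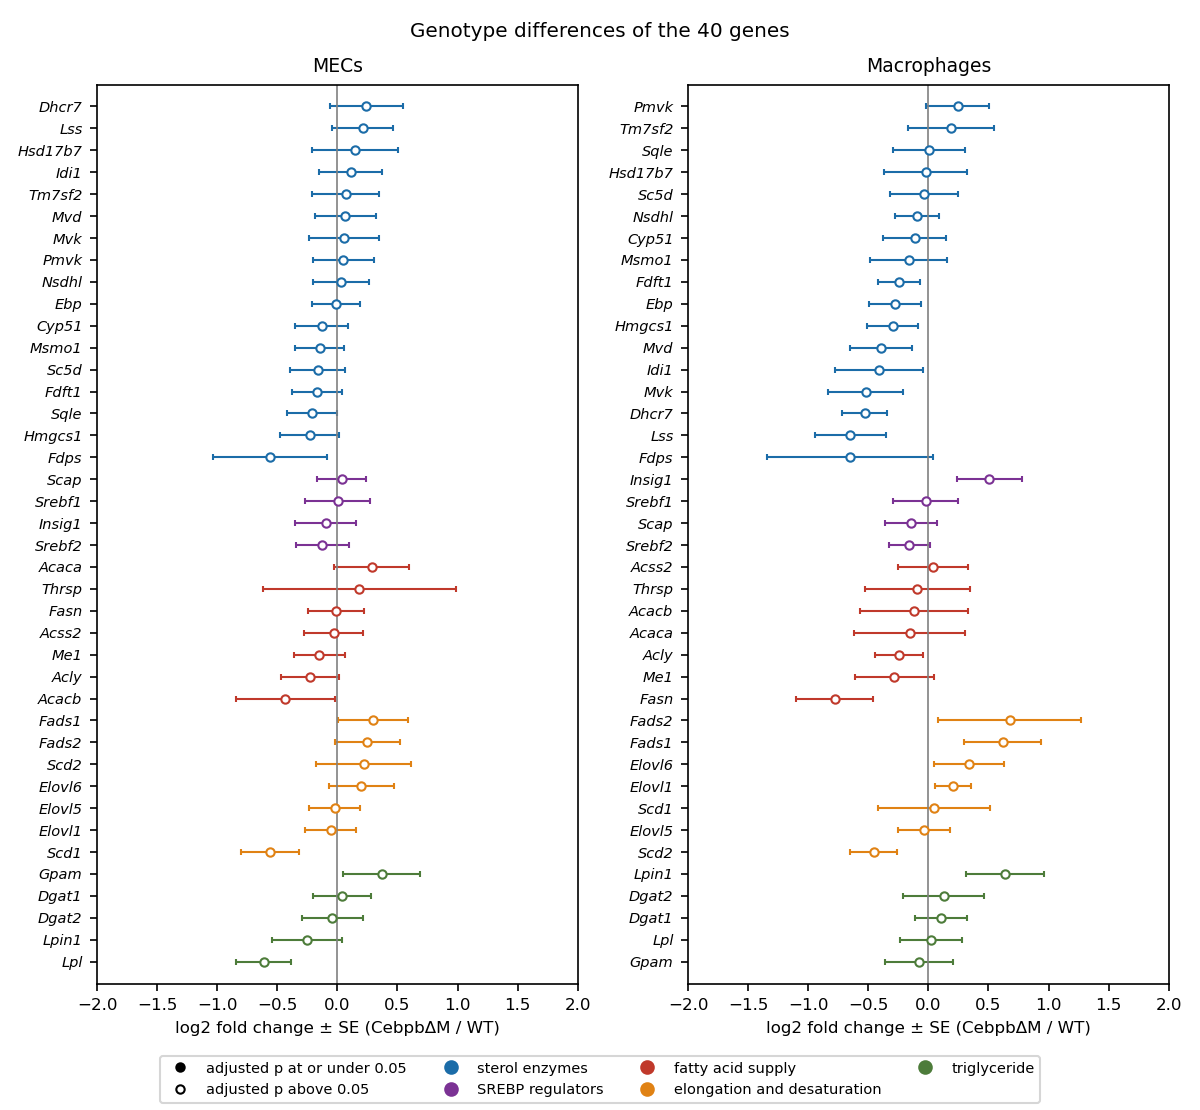
Log2 fold change (x axis, ± SE) of each of the 40 genes in CebpbΔM relative to WT, in MECs (left, 2 against 2 libraries) and macrophages (right, 4 against 2 libraries), grouped by role (color). No point is filled, since none of the 40 genes passed the threshold, and 14 of the 17 sterol enzymes lie below 0 in macrophages.

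Of the macrophage libraries, CebpbΔM macrophage 4 was highest for 3 of the 4 desaturase genes, Fads2, Fads1 and Scd1. Scd2 was at 58.0 CPM in it and at 65.7 CPM in CebpbΔM macrophage 5. For none of the 4 did Dixon's test, given below, set apart CebpbΔM macrophage 4. Fads2, the desaturase of the first step of polyunsaturated fatty acid synthesis, was at 316 CPM there, at 142, 69.9 and 69.6 CPM in CebpbΔM macrophages 5 to 7 and at 95.8 and 88.2 CPM in WT. Fads1, the desaturase of the later step, was at 198 CPM there and at 127, 96.3 and 91.7 CPM in the other CebpbΔM libraries, with 90.2 and 74.4 CPM in WT. For Fads1 the groups did not overlap, and its log2 fold change was 0.62 ± 0.32 (adjusted P = 0.641, edgeR). Without this library the log2 fold change of Fads1 was 0.33 and that of Fads2 went from 0.68 to 0.01. Scd1 was also highest there, at 197 CPM beside 54.5 to 119 CPM in the other macrophage libraries. The library also held the largest sums of the basal markers (3052 CPM) and of the milk markers (867 CPM) among macrophage libraries. The luminal markers did not share this. They summed to 6286 CPM in it, beside 9778 and 9824 CPM in WT and between 5124 and 6693 CPM in CebpbΔM macrophages 5 to 7. Not every basal and milk marker followed, since Myh11, Lalba and Glycam1 were highest in CebpbΔM macrophage 6. Krt14 was at 694 CPM in CebpbΔM macrophage 4 and between 41.5 and 366 CPM in the other macrophage libraries, and Elf5 was at 112 CPM and between 21.3 and 46.6 CPM. Csn1s1 was at 281 CPM and between 0.18 and 43.2 CPM, and Csn2 was at 239 CPM and 16.8 CPM or less. Their part in the values of Fads1, Fads2 and Scd1 was not tested.

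**Figure D5:**
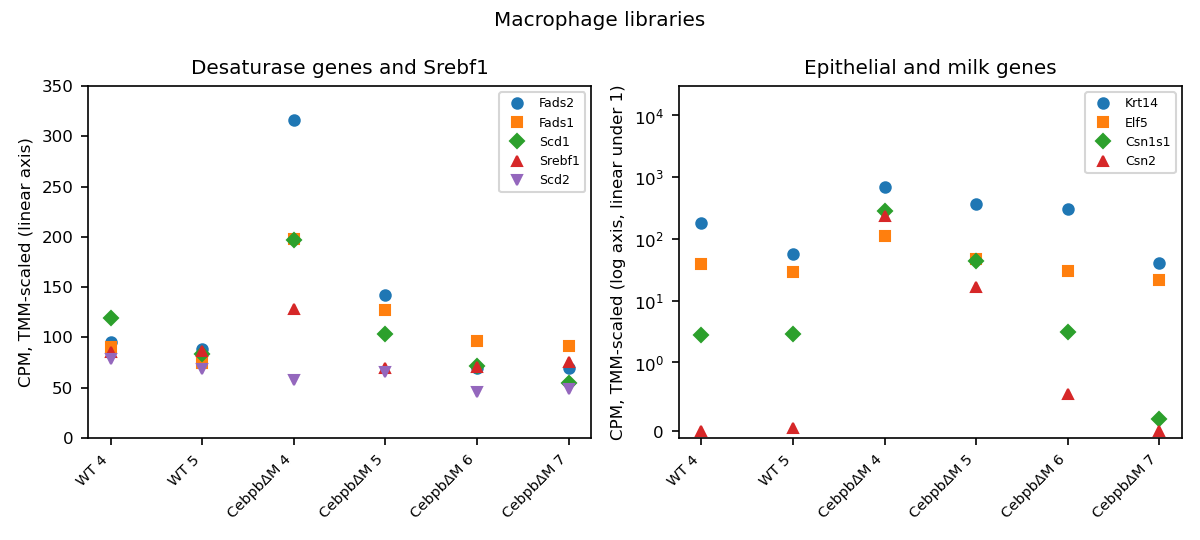
Levels in the 6 macrophage libraries (x axis, WT 4 and 5 and CebpbΔM 4 to 7) of desaturase genes and Srebf1 (left, linear axis) and of epithelial and milk genes (right, log axis that is linear under 1 CPM), in CPM scaled by TMM. CebpbΔM macrophage 4 is highest for every gene shown except Scd2, with Fads2 at 316 CPM and Csn2 at 239 CPM. The 8 luminal markers, not shown, summed to 6286 CPM in this library, below both WT libraries.

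In MECs, too, none of the 40 genes passed the threshold (edgeR quasi-likelihood test over 15698 genes), where 0.051% of all genes passed. DESeq2 and the likelihood ratio test called 161 and 179 genes, again none among the 40. At an unadjusted P under 0.05 there were 2 of the 40, both lower, beside 5.42% of all genes in either direction and 1.43% lower. Lpl was at 38.4 and 37.7 CPM in WT MECs and at 22.8 and 26.1 CPM in CebpbΔM MECs, a log2 fold change of -0.61 ± 0.23 (unadjusted P = 0.0203, adjusted P = 0.638, edgeR). Scd1 was at 187 and 119 CPM in WT and at 106 and 97.8 CPM in CebpbΔM, a log2 fold change of -0.56 ± 0.24 (unadjusted P = 0.0395, adjusted P = 0.848, edgeR) that was -0.21 without WT MEC 1. Both groups were separate for these genes, as they were for 8 of the 40 genes and for 28.2% of all genes.

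The sterol enzymes in MECs were balanced, with 8 of 17 below 0 and a median log2 fold change of 0.03, beside 51.4% of all genes below 0. The fatty acid and triglyceride genes had 11 of 19 below 0 and a median of -0.02. Sqle was at 126 and 152 CPM in WT and at 116 and 121 CPM in CebpbΔM, and Msmo1 was at 56.2 and 62.5 CPM in WT and at 53.4 and 52.3 CPM in CebpbΔM, which are separate but close. Gpam, the first acyltransferase of glycerolipid synthesis, was at 12.4 and 14.5 CPM in WT and at 12 and 22.1 CPM in CebpbΔM. Acacb was at 3.96 and 2.36 CPM in WT and at 2.28 and 2.33 CPM in CebpbΔM. Its log2 fold change of -0.43 was -0.02 without WT MEC 1. No gene of the 40 differed by more than 0.61 on the log2 scale, with a median SE of 0.25, and 32 of the 40 fold changes changed sign in at least 1 fit without a library.

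An interaction term asked whether the genotype difference was unequal in MECs and macrophages. None of the 40 genes passed (edgeR quasi-likelihood test over 18323 genes), where 0% of all genes passed. None of the 40 and 5.19% of all genes had an unadjusted P under 0.05, and DESeq2 and the likelihood ratio test called 27 and 53 genes with none among the 40. Lss had the smallest P of the 40, with a difference of log2 fold changes of -0.82 ± 0.41 (unadjusted P = 0.0715, adjusted P = 0.968, edgeR), macrophages minus MECs. Lpin1 followed, at 0.94 ± 0.5 (adjusted P = 0.976, edgeR), then Dhcr7 at -0.72 ± 0.39 and Lpl at 0.68 ± 0.37 (adjusted P = 0.978 for both, edgeR). Across the alternatives these differences ran from -1.22 to -0.36 for Lss, from 0.49 to 1.38 for Lpin1, from -1.27 to -0.33 for Dhcr7 and from 0.37 to 0.99 for Lpl. The SEs of the 40 differences had a median of 0.41, larger than in either cell type alone. The fold changes had the same sign in both cell types for 19 of the 40 genes, 13 lower and 6 higher. Of the 64 genes of the further lists, 63 were tested in MECs and all in the other comparisons, and none passed in either cell type or in the interaction.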

How the data were processed

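RNA of 4 MEC and 6 macrophage libraries, prepared with a low-input Smart-Seq kit, was sequenced on the DNB-seq platform. The authors trimmed reads with Trimmomatic, mapped them to GRCm38 with HISAT2 and counted pairs on Ensembl 100 genes with featureCounts (version 1.6.2), strand-specifically and with a minimum mapping quality of 10. The authors deposited raw read counts for each gene and library. Positions and identifiers of genes are as in their tables, and promoter positions are RefSeq's. The header of the MEC table also names libraries numbered 2, but the table holds no count column for them. Every count column in the tables was used.

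The 40 genes, the further lists and the tests were chosen with earlier results of these data known. The 17 sterol enzymes are Hmgcs1, Mvk, Pmvk, Mvd, Idi1, Fdps, Fdft1, Sqle, Lss, Cyp51, Tm7sf2, Msmo1, Nsdhl, Hsd17b7, Ebp, Sc5d and Dhcr7, the regulators Insig1, Srebf1, Srebf2 and Scap, and the others Acly, Acss2, Me1, Acaca, Acacb, Fasn, Thrsp, Elovl1, Elovl5, Elovl6, Scd1, Scd2, Fads1, Fads2, Gpam, Lpin1, Dgat1, Dgat2 and Lpl. Values per library are given for genes past the threshold, for up to 6 genes per comparison with the smallest P, and for genes without overlap of groups where needed to describe a role. Hmgcs1, Fdft1, Ebp and Scd1 in macrophages, Fads2 by genotype, and Krt14, Elf5, Csn1s1 and Csn2 beside it, were chosen after their values were seen. Of the further lists, genes past the threshold are named.

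The tests took genes of 300 nt or more that exceeded 1 CPM in 2 or more libraries. All 40 genes passed in every comparison. Each cell type was fitted alone, and the interaction and the WT cell type comparison over all 10 libraries, with TMM normalization and the quasi-likelihood test of edgeR (version 4.0.16, under R version 4.3.3), adjusted by Benjamini–Hochberg over all genes tested, threshold 0.05. The likelihood ratio test named in the methods of the study was an alternative, with DESeq2 (version 1.42.0), relative log expression (RLE) normalization, other filters, the replicate number as a block, all 10 libraries in 1 fit, replicates 4 and 5 only, the mean of both genotypes, a test beyond 2-fold and each library left out. The SE belongs to the log2 fold change. Log2 CPM used a prior count of 2 and the library size without TMM scaling. The fits were tested on simulated counts. The labels do not say whether the libraries come from separate animals, so P-values measure the spread between these libraries only.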

Additional observations from a re-analysis of the deposited data

Results flagged for a closer look

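Of the 40 genes, each tested for a far sample among the 4 CebpbΔM macrophage libraries, 2 had a library set far apart from the rest (Dixon's test). Chance sets apart about 1 in 20 such groups. Ebp, sterol isomerase, was at 78.3 CPM in CebpbΔM macrophage 7 and at between 50.9 and 54.6 CPM in the other CebpbΔM libraries, beside 76.8 and 64.8 CPM in WT macrophages. Srebf1 was at 128 CPM in CebpbΔM macrophage 4 and at between 69.9 and 75.5 CPM in the other CebpbΔM libraries, beside 85.4 and 86.5 CPM in WT macrophages. Without that library, the log2 fold change of Srebf1 went from -0.02 to -0.28.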

How the results depend on the processing

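The count of 0 of the 40 genes past the threshold held in the genotype comparison of MECs, that of macrophages and the interaction under every alternative run, while counts over all genes ran from 0 to 337 in MECs, from 0 to 201 in macrophages and from 0 to 53 in the interaction, against 8, 0 and 0. Between the WT cell types, 12 of the 40 passed. The count was 7 with the replicate block, 4 beyond 2-fold (Lpl, Me1, Thrsp and Sqle), 14 with DESeq2 and 14 over both genotypes, and it ran from 5 to 12 when each library was left out, with 5 without WT macrophage 5, 7 without WT MEC 1 and 8 without WT MEC 3. The mean over both genotypes called 8163 genes in all and the test beyond 2-fold 1870, against 4664, and the cause of the lower count with the block was not tested. The difference of medians, sterol minus fatty acid, ran from -0.0096 to 0.16 in MECs, from -0.3 to -0.18 in macrophages and from -0.38 to -0.087 between the WT cell types when each library was left out. With replicates 4 and 5 only, it was -0.11 in macrophages. When each library was left out, 32 of the 40 fold changes in MECs and 19 in macrophages changed sign in at least 1 fit, none of them past the threshold. Of the 6 MEC genes with the smallest P, Fdps ran from -0.95 to 0.0015 (positive without WT replicate 3), Fads1 from -0.23 to 0.68 (negative without CebpbΔM replicate 1) and Gpam from -0.17 to 0.76 (negative without CebpbΔM replicate 3), in log2 fold change. Deviations of same-numbered libraries correlated at 0.11 in MECs and at 0.13 and -0.09 in macrophages (the same value for both pairs of MECs, whose deviations mirror each other), which does not settle whether the numbers pair the libraries. No label says that they do, and the libraries were taken as unpaired. With the replicate block, 205 genes of all tested passed in MECs and 12 in macrophages, none of them among the 40.

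Every group but CebpbΔM macrophages had 2 libraries. The median SE of the 40 genes was 0.25 in MECs, 0.29 in macrophages and 0.41 in the interaction, on the log2 scale, and differences of up to 0.61, 0.78 and 0.94 did not pass the threshold. Cebpb had between 4 and 69 counts per library, and the cause of this low level was not tested. The paper describes high Cebpb expression in Csf1r+ cells of its single-cell data. For the deletion, it reports no detectable C/EBPβ protein in bone marrow-derived macrophages of CebpbΔM mice. In such cells treated with lipopolysaccharide it reports no detectable Cebpb mRNA. By immunostaining of CebpbΔM mammary glands it reports C/EBPβ missing from CSF1R+ cells. These are other cells or other measures than the macrophage libraries here.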
